A study of Mus musculus with 14 samples.

Results

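The 10 genes described here are known mainly from macrophages and other leukocytes: Tyrobp, Fcer1g, Coro1a, Csf1r, C1qa, C1qb, Ptprc, Cx3cr1, Aif1 and Laptm5. They were chosen by symbol from the 55487 genes of the deposited count table, in which each symbol occurs once, and all 10 were among the 16876 genes that passed the filter on low counts. The table holds bulk RNA-seq of GFP-sorted ureteric bud cells, the epithelium that branches into the collecting ducts, from E13.5 mouse kidneys. Hoxb7-Cre, a transgene active in the ureteric bud lineage, carries the GFP and drives the deletion. There were 5 libraries labelled Cep120 KO (titled "homo", numbers 2, 4, 5, 6 and 7) and 3 Cep120-line controls (titled "het", numbers 1 to 3). There were also 3 libraries labelled Pkd1 KO (titled "homo") and 3 Pkd1-line controls (titled "het"), numbered 1 to 3 in each group. The genotype label of both kinds of control is WT, so the titles and that label differ for them. Cep120 encodes a centriole assembly protein, and Pkd1 encodes polycystin-1, a membrane protein that keeps kidney tubules from forming cysts. The labels do not tell whether libraries came from separate embryos or from pools, and the p-values below therefore rest on library-to-library spread that may be only technical.

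Macrophages enter the embryonic kidney early, from yolk sac and later fetal liver progenitors, and lie between the tubules and in the stroma. They depend on the receptor Csf1r and its ligands, clear dying cells, and make the C1q subunits that start the classical complement pathway. Tyrobp and Fcer1g are small membrane adaptors with tyrosine motifs through which many receptors of myeloid cells signal. Blood-derived cells are not part of the Hoxb7-Cre lineage, and a gate on GFP is meant to leave them out. In bulk libraries a lower level of these genes can mean fewer cells of a type or less RNA per cell, and these cannot be told apart. Which cells the reads of each gene came from was not tested.

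The depth of a library, as its summed estimated counts, ranged over 16293837-23761736 (labelled Cep120 KO), 18200490-27475901 (Cep120-line control), 11347657-27967596 (labelled Pkd1 KO) and 22061677-23181220 (Pkd1-line control). Cep120 itself had 7.87 to 21.2 CPM (read counts scaled to library size, with TMM factors) where the label is Cep120 KO, against 6.41 to 10.6 CPM in those controls, so it was not lower under that label, and Pkd1 reached 2.39 to 2.68 CPM in the libraries labelled Pkd1 KO, against 3.34 to 4.60 CPM in their controls. The labels do not name the deleted exons, so reads from the rest of a gene check these labels only in part. Libraries 4 to 7 labelled Cep120 KO stood apart from the other 10 in their TMM factors (1.15 to 1.32 against 0.862 to 0.966) and lay low in mitochondrially encoded reads (2.15 to 3.61% against 3.36 to 5.69% of counts). The 15 ureteric bud markers summed to 1474 and 2094 CPM in libraries 6 and 7 labelled Cep120 KO. They summed to 3556 CPM or more in the other 12. Several nephron progenitor markers, such as Six2 (127 and 86.1 CPM), were high in the same pair. Cited1 (50.8 and 33.2 CPM) and Tmem100 (8.49 and 9.55 CPM) of that list lay within the range of the other 12. The part of these differences in the results below was not tested, and each main count is given again without those libraries.

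Coro1a was by far the most abundant of the genes, with 54.0% of all reads on the 10. Per transcript length, its median over the 14 libraries was 18.1 TPM (the deposited length-scaled level), followed by Fcer1g at 3.12, C1qb at 2.45, Tyrobp at 1.61 and Laptm5 at 1.45 TPM. Ptprc (0.928 TPM), Aif1 (0.4985 TPM), C1qa (0.427 TPM), Csf1r (0.320 TPM) and Cx3cr1 (0.1235 TPM) had medians below 1 TPM. Each neighbouring pair in this order overlapped in range over the libraries. Coro1a led in every library other than number 6 labelled Cep120 KO, where C1qb stood at 14.2 TPM and Coro1a at 9.81 TPM. The reads on all 10 genes together were 0.00204 to 0.00792% of a library's counts.

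In the comparison of libraries labelled Cep120 KO with the Cep120-line controls, 3 of the 10 genes were called lower and 0 were called higher. Those called lower were Coro1a, Tyrobp and Fcer1g, at 0.309, 0.149 and 0.180 times the control level. Calls rest on edgeR's quasi-likelihood test with a Benjamini-Hochberg adjusted p under 0.05 over all genes tested, a rule by which 6.26% of the 16876 genes were called lower and 8.4% higher. All 10 fitted differences were below 0, with a median log2 fold change of -1.43, against 0.12 over all genes tested. In 4 genes (the 3 called lower and Laptm5) every library labelled Cep120 KO lay below every control in CPM, as in 8.75% of all genes tested. On the TPM scale the groups overlapped for Tyrobp and Laptm5 of these 4. The mean TPM of C1qa was not lower, at 1.618 where labelled Cep120 KO and 1.605 in the controls. Each other member had a lower mean TPM under that label. The count of members called lower was 4 without libraries 6 and 7, when C1qb joined the 3 and Aif1 and C1qa no longer passed the low-count filter, and 0 in a separate fit of these groups alone, which called 0 of all genes (4081 genes at an unadjusted p below 0.05). It was 1, Coro1a, when any of the 3 Cep120-line controls or library 7 labelled Cep120 KO was left out, and 0 with library 2 as the only one of its group.

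**Figure D1:**
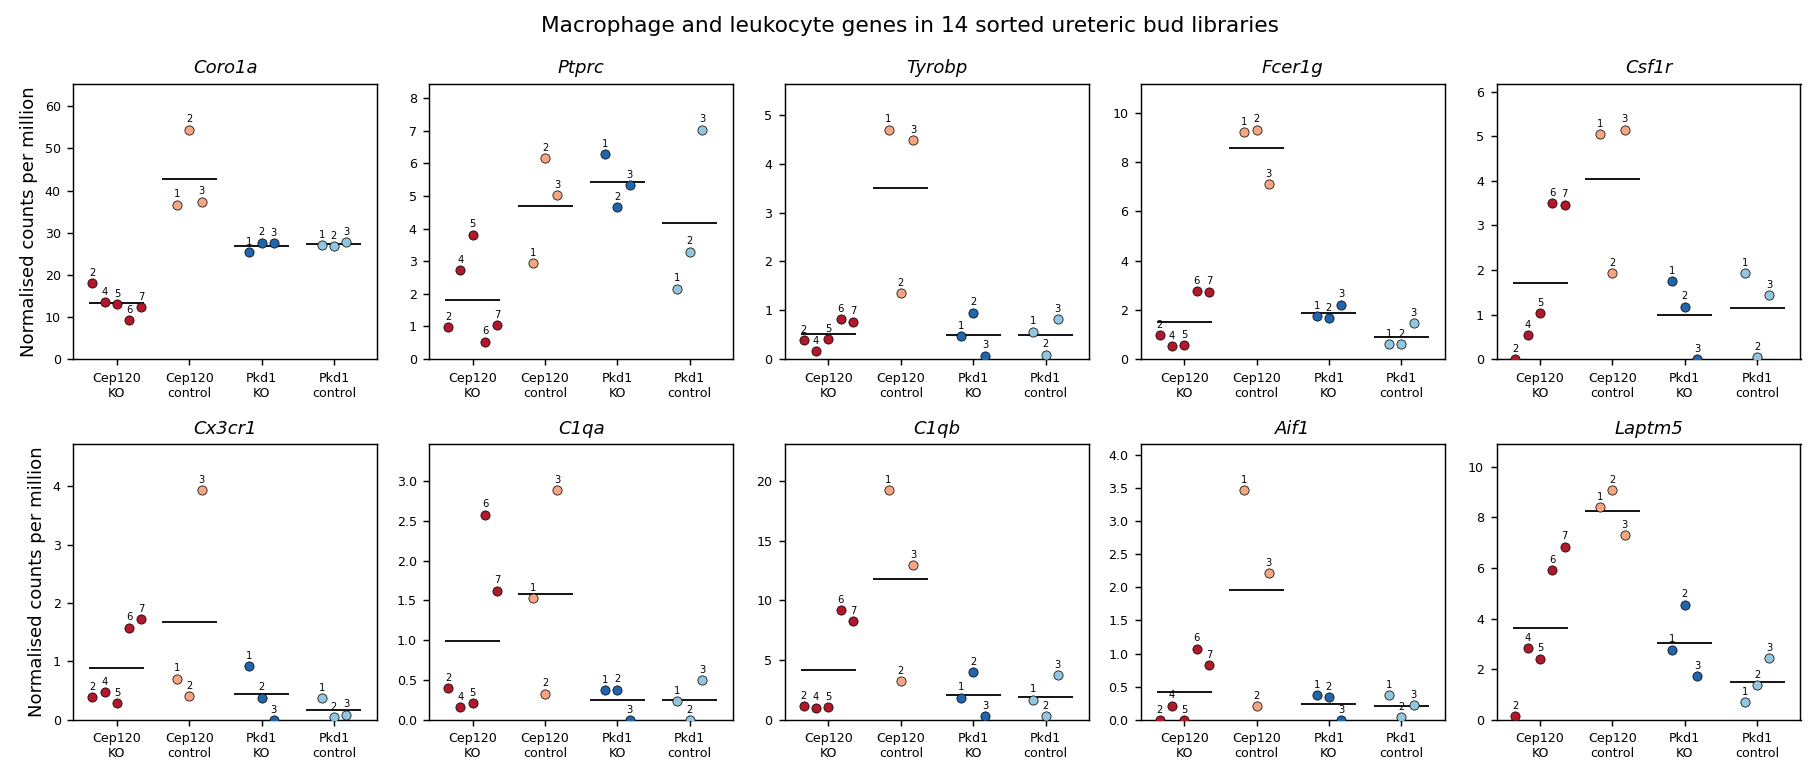
Normalised read count in CPM (vertical axis, linear, from 0) of the 10 genes in each library; points carry the library's number in its group and horizontal lines are group means. Coro1a sits at 9.24 to 18.1 CPM in the libraries labelled Cep120 KO, below the 36.7 to 54.5 CPM of their controls, while libraries 6 and 7 of the same group stand above 2, 4 and 5 in C1qb.

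Coro1a (ENSMUSG00000030707, chromosome 7, 126699773 to 126707787, minus strand, GRCm38) encodes coronin 1A, an actin-binding protein of haematopoietic cells that is needed for T cell survival and migration. It had 18.1, 13.54, 13.01, 9.24 and 12.4 CPM in libraries 2, 4, 5, 6 and 7 labelled Cep120 KO, from 254 to 389 reads. The Cep120-line controls 1, 2 and 3 had 36.7, 54.5 and 37.4 CPM, from 609 to 1327 reads. The groups did not overlap, and even the highest library labelled Cep120 KO stood well below the lowest control. The log2 fold change was -1.69 (SE 0.20, edgeR adjusted p = 0.01178), and this gene stayed below the threshold of 0.05 in each of the 14 fits that left out 1 library (adjusted p 2.48e-05 to 0.0493). It lost its call in the separate fit of these groups (log2 -1.70, edgeR adjusted p = 0.1334) and with library 2 alone (log2 -1.23, edgeR adjusted p = 0.1164), a fit in which that lone library is assumed to vary like those of the other groups. On the TPM scale the groups did not overlap either, with 9.81 to 13.52 TPM where labelled Cep120 KO, and 20.4 to 32.9 TPM in their controls. Of its 2783 exonic bases, 26 are shared with Bola2 on the opposite strand, and with an unstranded kit reads there cannot be told apart.

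The adaptors Tyrobp and Fcer1g were scarce outside the Cep120-line controls. Tyrobp (ENSMUSG00000030579, chromosome 7, 30413760 to 30417585, plus strand), also known as DAP12, pairs with Trem2 and other activating receptors. It reached 0.393, 0.160, 0.411, 0.824 and 0.764 CPM in libraries 2, 4, 5, 6 and 7 labelled Cep120 KO, from 3 to 24 reads each. The controls 1, 2 and 3 had 4.70, 1.36 and 4.48 CPM, so control 2 was the low one, yet still above all 5 in CPM. In TPM, libraries 6 and 7 labelled Cep120 KO (2.672 and 2.616 TPM) stood just above control 2 (2.613 TPM). The log2 fold change was -2.74 (SE 0.74, edgeR adjusted p = 0.03289). That call rested on single libraries: it was lost without any of libraries 4, 5, 6 and 7 labelled Cep120 KO, any Cep120-line control or Pkd1-line control 1 (adjusted p 0.0507 to 0.124), with log2 values of -3.14 to -2.48 throughout.

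Fcer1g (ENSMUSG00000058715, chromosome 1, 171229572 to 171234365, minus strand) encodes the common gamma chain of Fc receptors. It had 0.983, 0.533, 0.575, 2.76 and 2.74 CPM in libraries 2, 4, 5, 6 and 7 labelled Cep120 KO, against 9.22, 9.32 and 7.12 CPM in controls 1, 2 and 3. Libraries 6 and 7 were the high ones of their group and still lay below each control. The log2 fold change was -2.47 (SE 0.53, edgeR adjusted p = 0.02899). The call was lost without library 7 labelled Cep120 KO (edgeR adjusted p = 0.0537) and without control 1, 2 or 3 (adjusted p 0.0922 to 0.114), at log2 values of -2.79 to -2.42.

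The surface receptors Csf1r and Cx3cr1 did not pass the test. Csf1r (chromosome 18) is the receptor for CSF1 and IL-34 on which tissue macrophages depend. It had 0, 0.533, 1.03, 3.51 and 3.47 CPM in libraries 2, 4, 5, 6 and 7 labelled Cep120 KO, against 5.05, 1.93 and 5.16 CPM in controls 1, 2 and 3. The groups overlapped, since libraries 6 and 7 exceeded control 2, and the log2 fold change was -1.22 (SE 1.12, edgeR adjusted p = 0.4713). Of its 5774 exonic bases, 873 are shared with Hmgxb3 on the opposite strand. Cx3cr1 (chromosome 9, 119901616 to 120069879, minus strand) is the fractalkine receptor of monocytes and microglia. It had 0.393, 0.480, 0.287, 1.58 and 1.72 CPM in the libraries labelled Cep120 KO, against 0.705, 0.411 and 3.93 CPM in controls, with control 3 alone far above the rest. Its log2 fold change of -0.89 (SE 0.98, edgeR adjusted p = 0.5546) turned to 0.68 without that control.

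C1qa and C1qb, chains of the C1q molecule made by macrophages, lie side by side on chromosome 4 (136895917 to 136898803 and 136880129 to 136886187, both on the minus strand). C1qb levels were 1.11, 1.01, 1.07, 9.21 and 8.25 CPM in libraries 2, 4, 5, 6 and 7 labelled Cep120 KO, against 19.2, 3.24 and 12.95 CPM in controls 1, 2 and 3. The group labelled Cep120 KO thus held 3 low libraries and a pair that lay between controls 2 and 3, so the groups overlapped. The log2 fold change was -1.50 (SE 0.92, edgeR adjusted p = 0.272), and without libraries 6 and 7 it was -3.46 (SE 0.91, edgeR adjusted p = 0.04543). C1qa followed the same libraries at a lower level, with 0.393, 0.160, 0.205, 2.58 and 1.62 CPM in libraries labelled Cep120 KO and 1.53, 0.329 and 2.88 CPM in controls (log2 -0.64, SE 1.08, edgeR adjusted p = 0.7139).

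Among the remaining genes, Laptm5 was the 1 with every library labelled Cep120 KO below every control in CPM. It encodes a lysosomal membrane protein of haematopoietic cells that limits antigen receptor signals. It had 0.131, 2.83, 2.42, 5.91 and 6.85 CPM in libraries 2, 4, 5, 6 and 7 labelled Cep120 KO, against the 8.40, 9.07 and 7.30 CPM of controls 1, 2 and 3 (log2 -1.17, SE 0.69, edgeR adjusted p = 0.2497). Library 2, with 2 reads, was the low extreme and library 7 nearly met control 3. In TPM the groups overlapped, with 3.429 and 4.169 TPM in libraries 6 and 7 labelled Cep120 KO. Controls 1, 2 and 3 had 2.722, 3.084 and 2.558 TPM. Aif1, which encodes the actin-binding protein Iba1 used to stain macrophages, had 0, 0.213, 0, 1.07 and 0.828 CPM in libraries labelled Cep120 KO, against 3.47, 0.205 and 2.21 CPM in controls. Control 2 was as low as library 4, and the log2 fold change of -2.14 did not pass (SE 1.19, edgeR adjusted p = 0.2207). Ptprc, which encodes the pan-leukocyte phosphatase CD45, had 0.983, 2.72, 3.82, 0.537 and 1.05 CPM in libraries 2, 4, 5, 6 and 7 labelled Cep120 KO and 2.94, 6.16 and 5.03 CPM in controls (log2 -1.37, SE 0.56, edgeR adjusted p = 0.1021). Here libraries 6 and 7 were among the low ones and libraries 4 and 5 the high ones, the reverse of their places in C1qb.

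**Figure D2:**
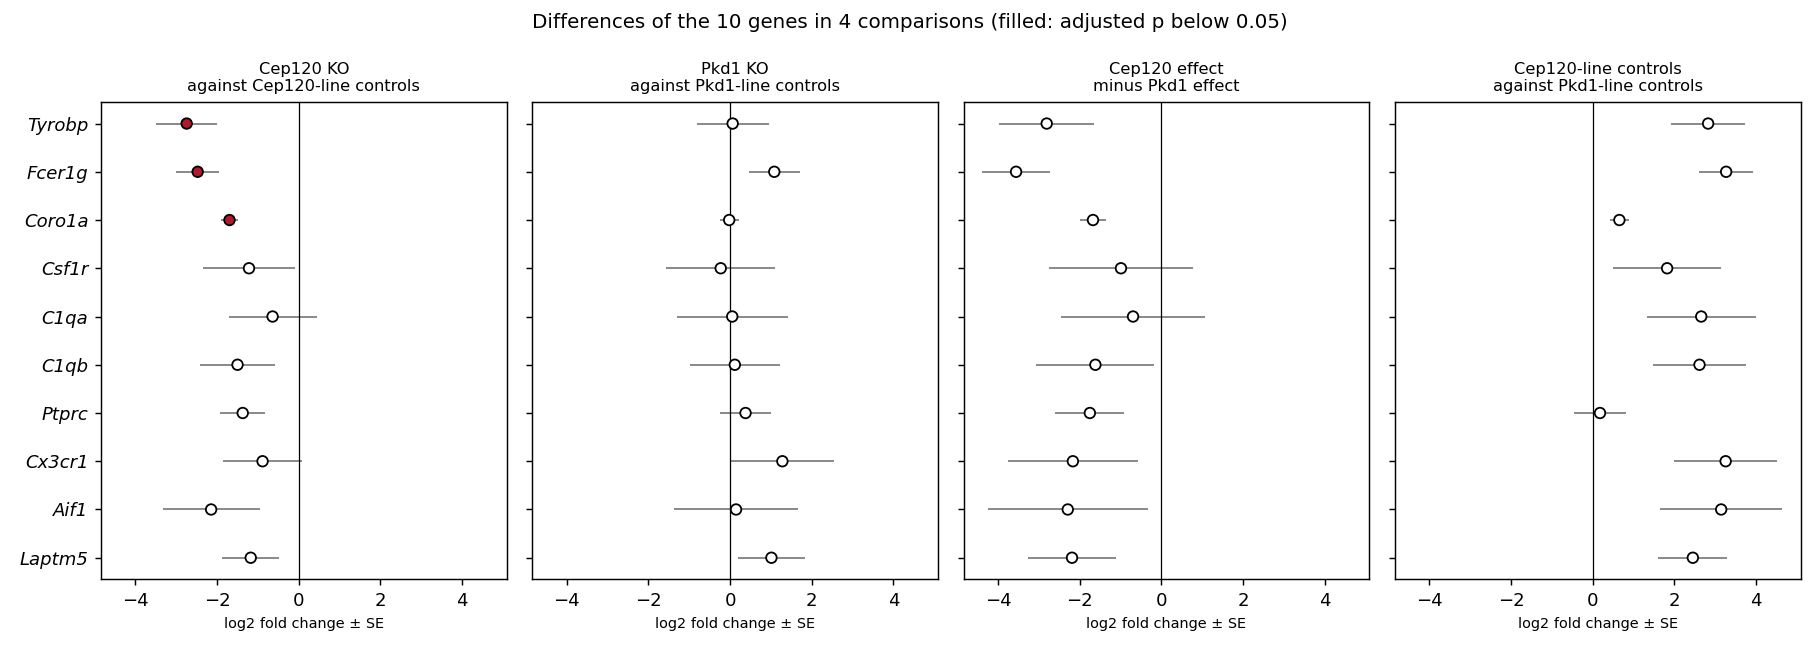
Log2 fold change (horizontal axis) with its standard error for each gene in the 4 comparisons; filled points passed an adjusted p of 0.05. Coro1a, Tyrobp and Fcer1g are filled in the first panel at -1.69, -2.74 and -2.47, no point is filled in the other panels, and all 10 points lie right of 0 in the comparison of the control groups.

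In libraries labelled Pkd1 KO against Pkd1-line controls, 0 of the 10 genes were called in either direction, and neither was any other gene (called higher: 0%; called lower: 0% of 16876; 259 genes had an unadjusted p below 0.05, none of them among the 10). DESeq2 called 3 genes in this comparison and limma-voom 1, in each case none of the 10. The median log2 fold change of the 10 was 0.13, against -0.01 over all genes. Coro1a was even across the Pkd1 line, with 25.4, 27.7 and 27.4 CPM in the libraries labelled Pkd1 KO and 27.1, 26.8 and 27.8 CPM in the controls (log2 -0.02, SE 0.23, edgeR adjusted p = 1). Fcer1g was the only member with every KO library above every control, as in 4.88% of all genes tested. It had 1.76, 1.67 and 2.21 CPM in the libraries labelled Pkd1 KO, against 0.610, 0.595 and 1.44 CPM in controls (log2 1.08, SE 0.63, edgeR adjusted p = 1). Laptm5 (2.78, 4.56 and 1.73 CPM against 0.704, 1.37 and 2.44 CPM) and Ptprc (6.29, 4.67 and 5.32 CPM against 2.16, 3.29 and 7.04 CPM) had higher means in the libraries labelled Pkd1 KO but overlapped with the controls.

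In the Pkd1 line, the groups overlapped for the C1q chains, Csf1r, Tyrobp, Aif1 and Cx3cr1. C1qb had 1.85, 3.99 and 0.277 CPM in libraries 1, 2 and 3 labelled Pkd1 KO and 1.69, 0.320 and 3.75 CPM in controls 1, 2 and 3, so each group held a library near 0 and a high one. In Pkd1 KO library 3, Csf1r, C1qa, Cx3cr1 and Aif1 had 0 reads each, and Tyrobp had 1 read. The same library had 397 reads of Coro1a and 77 reads of Ptprc. Pkd1-line control 2 had 0 reads of C1qa and 1 read each of Csf1r, Cx3cr1 and Aif1. At these depths 3 reads correspond to 0.207 and 0.137 CPM, so a count of 0 allows levels up to about that, counting error only.

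The Cep120 difference minus the Pkd1 difference called 0 of the 10 genes and 0 of all genes in either direction with edgeR (called higher: 0%; called lower: 0%; 3436 genes at an unadjusted p below 0.05), with a smallest adjusted p of 0.122. All 10 estimates were negative, with a median of -1.96 against 0.13 over all genes. Coro1a (log2 -1.67, SE 0.31, unadjusted p = 9.063e-05) and Fcer1g (log2 -3.56, SE 0.83, unadjusted p = 0.0007642) had the smallest p-values among the 10, both at an edgeR adjusted p of 0.1758. This absence of calls depended on the tool and on library 2. DESeq2 called both genes (adjusted p = 0.0005468 and 0.007768) among 715 in all, limma-voom called them together with Tyrobp and Laptm5 among 4383, and edgeR called both without library 2 labelled Cep120 KO (adjusted p = 0.0008982 and 0.01428) among 3140.

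Set against the Pkd1-line controls, the Cep120-line controls had the higher fitted level of all 10 genes, with a median log2 fold change of 2.64 against -0.01 over all genes tested, although 0 of the 10 were called (0.107% of genes were called higher; 6 of the 10 and 825 of all 16876 genes had an unadjusted p below 0.05). In 6 genes (Tyrobp, Fcer1g, Coro1a, Csf1r, Cx3cr1 and Laptm5) every Cep120-line control lay above every Pkd1-line control, as in 11.5% of all genes tested. Fcer1g had 9.22, 9.32 and 7.12 CPM in Cep120-line controls, against 0.610, 0.595 and 1.44 CPM in Pkd1-line controls (log2 3.27, SE 0.66, edgeR adjusted p = 0.1114). It was called with DESeq2 (adjusted p = 0.0001402), with limma-voom (0.0001062), without the low-count filter (0.04548, among 30 genes called) and in a separate fit of the 6 controls (0.003807). Laptm5 was called in that separate fit (edgeR adjusted p = 0.02597) and with limma-voom (0.01007), and Coro1a with limma-voom (0.03146). Tyrobp averaged 3.51 ± 1.87 CPM in Cep120-line controls and 0.489 ± 0.366 CPM in Pkd1-line controls (SD, n = 3 each), and Laptm5 averaged 8.26 ± 0.894 and 1.50 ± 0.874 CPM (SD, n = 3 each). Ptprc was the exception in size, with 4.71 ± 1.64 CPM in Cep120-line controls and 4.16 ± 2.55 CPM in Pkd1-line controls (SD, n = 3 each; log2 0.18, SE 0.63, edgeR adjusted p = 0.9978).

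The direction of 8 of the 10 genes changed with the controls used. With the Pkd1-line controls in place of the Cep120-line controls, an alternative chosen after the data were seen, these 8 had a positive estimate in the libraries labelled Cep120 KO, such as Fcer1g at 0.79 (SE 0.57, edgeR adjusted p = 0.3896), Cx3cr1 at 2.37 (SE 1.16, adjusted p = 0.2205) and C1qa at 2.02 (SE 1.23, adjusted p = 0.3125). Tyrobp was at 0.08 (SE 0.78). Coro1a alone was still called lower, at -1.04 (SE 0.20, edgeR adjusted p = 0.04276), and Ptprc was at -1.19 (SE 0.56, adjusted p = 0.2031). With all 6 controls pooled, Coro1a was again the 1 gene of the 10 called lower (log2 -1.37, edgeR adjusted p = 0.004821), while 3707 of all genes were called in either direction. The line of the controls and any difference in how the lines were collected cannot be told apart.

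Across the 14 libraries the genes fell into different patterns. Among the 45 pairs, Pearson's r of log2 CPM ran from -0.38 to 0.94, and 24 pairs had a permutation p below 0.05 after adjustment over the 45 (100000 permutations, two-sided). The permutations moved libraries freely across the groups, so differences between groups enter these p-values. C1qa and C1qb were the closest pair (r = 0.94, rho = 0.92, adjusted permutation p = 0.00015 and 0.00045). Their r was 0.94 without the 2 libraries farthest from the median of C1qa, 0.91 within the 8 Cep120-line libraries and 0.98 within the 6 Pkd1-line libraries. Tyrobp and C1qb were nearly as close (r = 0.92, rho = 0.93, adjusted permutation p = 0.00015 and 0.00045), with r = 0.88 without the 2 farthest libraries, 0.86 in the Cep120 line and 0.99 in the Pkd1 line. The raw Pearson p of 1e-05 for both pairs is the smallest that these permutations can give. Coro1a did not follow C1qb (r = 0.07, rho = 0.25, adjusted permutation p = 0.856 and 0.517). Coro1a and Ptprc had r = 0.71 and rho = 0.64 (adjusted permutation p = 0.0119 and 0.0320), but r fell to 0.44 without the 2 farthest libraries and was -0.03 within the Pkd1 line, so that relation rested on the Cep120 line.

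The other 8 genes, a set picked after their values were seen and so given with no test, had pairwise r values of 0.46 to 0.94. Within the Cep120 line those values were 0.46 to 0.95, and within the Pkd1 line -0.088 to 0.99, where Fcer1g had r = -0.088 with Aif1, 0.17 with C1qb and 0.72 with Laptm5. Coro1a had r values of -0.18 to 0.51 with those 8, and Ptprc of -0.38 to 0.21. The libraries share a depth and a preparation for all genes, and values near 0 reads carry much counting error. Summed without Coro1a, the 9 genes reached 4.39, 8.64, 9.81, 27.98 and 27.3 CPM in libraries 2, 4, 5, 6 and 7 labelled Cep120 KO, against 55.2, 32.0 and 51.1 CPM in their controls 1, 2 and 3. They reached 16.6, 18.1 and 9.61 CPM in the libraries labelled Pkd1 KO, against 8.64, 5.81 and 17.7 CPM in the Pkd1-line controls. The Cep120-line controls were therefore the highest 3 of the 14, followed by libraries 6 and 7 labelled Cep120 KO. Coro1a made up 20.6% of the summed TPM of the 10 genes in library 6 labelled Cep120 KO and 85.6% in Pkd1-line control 2, the extremes of the 14.

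**Figure D3:**
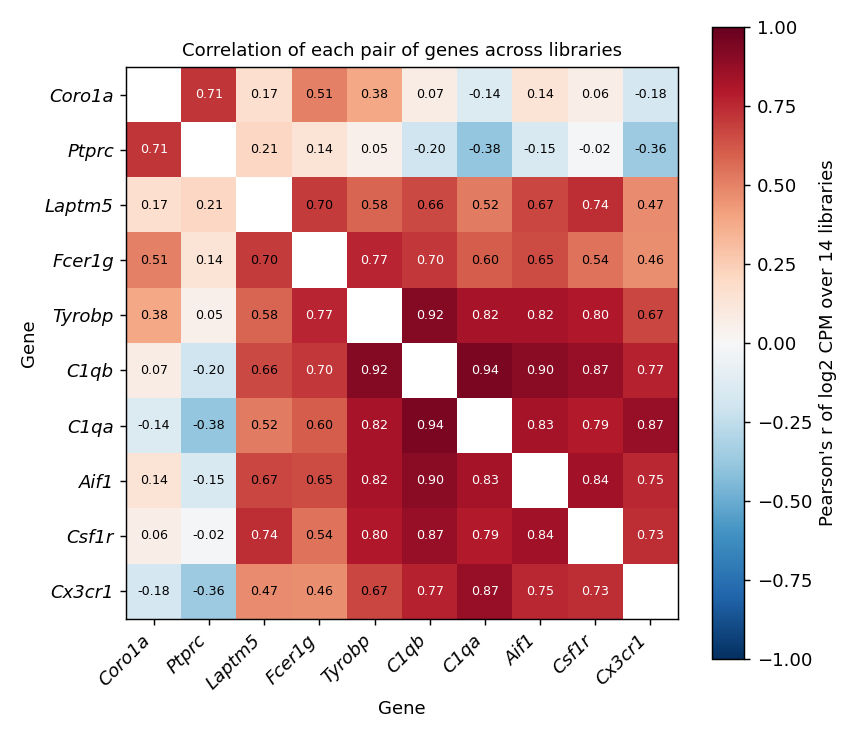
Pearson's r of log2 CPM over the 14 libraries for each pair of the 10 genes (both axes list the genes; colour runs from -1 to 1). The block of Laptm5, Fcer1g, Tyrobp, C1qb, C1qa, Aif1, Csf1r and Cx3cr1 holds values from 0.46 to 0.94, while the Coro1a and Ptprc rows share 0.71 with each other.

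Promoter windows are shown for 4 of the 8 genes above (C1qb, Aif1, Laptm5 and Fcer1g) and for Coro1a, because the macrophage factor PU.1, encoded by Spi1, acts at many myeloid promoters through a purine-rich GAGGAA box. The windows, from RefSeq on GRCm38.p6, run from 250 bases before to 50 after an annotated start, 5′ to 3′ on the gene's strand, and GAGGAA on either strand is in capitals, read as TTCCTC where it lies on the other strand.
C1qb (chr4:136886151-136886450, minus strand): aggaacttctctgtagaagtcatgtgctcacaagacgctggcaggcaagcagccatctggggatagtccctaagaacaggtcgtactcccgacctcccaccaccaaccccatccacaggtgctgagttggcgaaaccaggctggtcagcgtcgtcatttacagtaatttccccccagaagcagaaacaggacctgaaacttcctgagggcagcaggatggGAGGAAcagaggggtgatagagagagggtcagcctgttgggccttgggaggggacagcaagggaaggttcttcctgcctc
Aif1 (chr17:35176003-35176302, minus strand): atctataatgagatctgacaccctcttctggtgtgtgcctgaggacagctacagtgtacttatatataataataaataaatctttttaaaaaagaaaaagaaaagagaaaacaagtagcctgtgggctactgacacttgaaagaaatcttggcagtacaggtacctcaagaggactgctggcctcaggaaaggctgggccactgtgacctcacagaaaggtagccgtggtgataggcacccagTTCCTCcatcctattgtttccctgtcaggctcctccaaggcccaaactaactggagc
Laptm5 (chr4:130913066-130913365, plus strand): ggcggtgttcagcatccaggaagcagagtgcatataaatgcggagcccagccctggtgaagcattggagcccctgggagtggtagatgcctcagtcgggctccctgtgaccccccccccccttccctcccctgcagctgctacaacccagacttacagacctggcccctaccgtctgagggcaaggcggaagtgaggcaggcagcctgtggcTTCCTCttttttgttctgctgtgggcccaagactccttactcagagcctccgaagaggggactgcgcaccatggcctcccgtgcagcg
Fcer1g (chr1:171234300-171234599, minus strand): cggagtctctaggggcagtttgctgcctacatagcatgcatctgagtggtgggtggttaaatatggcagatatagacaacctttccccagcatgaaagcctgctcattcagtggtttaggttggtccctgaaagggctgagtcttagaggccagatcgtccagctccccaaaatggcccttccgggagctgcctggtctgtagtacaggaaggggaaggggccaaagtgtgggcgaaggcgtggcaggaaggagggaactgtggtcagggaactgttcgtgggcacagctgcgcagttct
Coro1a (chr7:126704767-126705066, minus strand): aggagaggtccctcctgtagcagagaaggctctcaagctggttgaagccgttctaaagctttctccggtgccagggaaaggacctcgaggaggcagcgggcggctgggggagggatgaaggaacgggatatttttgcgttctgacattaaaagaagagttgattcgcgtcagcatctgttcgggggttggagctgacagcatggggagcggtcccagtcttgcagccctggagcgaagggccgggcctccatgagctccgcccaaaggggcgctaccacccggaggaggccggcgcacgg
The box lay 30 bases before the start in C1qb, 7 before it in Aif1 and 38 before it in Laptm5, counted to its first base, and on the opposite strand in the last 2 genes. The windows of Fcer1g and Cx3cr1 and both Coro1a windows did not hold it, and of the 2 Ptprc windows the 1 that starts farther upstream did. Across all windows of 300 bases, 28.3% of 32851 held the box, and among the members 4 of the 9 windows did. These 9 windows belong to 7 of the 10 genes, and Tyrobp, C1qa and Csf1r are not covered. These letters describe the windows only and locate no bound factor. Spi1 itself was low, at 0 to 1.34 CPM, highest in libraries 7 and 6 labelled Cep120 KO.

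The deposited transcript table lists part of the transcripts of these genes. For Ptprc, Ptprc-204 carried 96.9% of the TPM listed, and for Laptm5, Csf1r, C1qa and C1qb a single listed transcript had all of it. Tyrobp reads were assigned to Tyrobp-202 in the Cep120-line controls (8.24, 2.61 and 8.84 TPM) and in libraries 5, 6 and 7 labelled Cep120 KO (1.25, 2.67 and 2.62 TPM). In libraries 2 and 4 they went to Tyrobp-201 (0.903 and 0.522 TPM). With 3 to 24 reads a library in that group, the split between the 2 protein-coding transcripts is poorly determined. Aif1 was divided between the protein-coding Aif1-203 (59.8% of listed TPM) and a transcript annotated as a retained intron (40.2%), and the intron-retaining form was the higher in libraries 4, 6 and 7 labelled Cep120 KO (0.371, 2.59 and 1.86 TPM, with 0.250, 1.12 and 0.998 TPM of Aif1-203), in Pkd1 KO library 1 and in Pkd1-line control 2.

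A list of 20 macrophage identity genes summed to 6.88, 15.04, 15.6, 36.1 and 30.9 CPM in libraries 2, 4, 5, 6 and 7 labelled Cep120 KO, against 41.1, 31.7 and 32.2 CPM in Cep120-line controls. In the Pkd1 line the sums were 14.99, 14.97 and 9.40 CPM in the libraries labelled Pkd1 KO, against 7.70, 9.65 and 19.5 CPM in controls. Over the 14 libraries the log2 sum of the list had r = 0.93 with the log2 sum of the 9 genes and 0.05 with Coro1a, given as a description. Of its 16 tested genes, 0 were called in the Cep120 comparison, with a median log2 fold change of -0.87 against 0.12 over all genes. Itgam and Cd163 of this list were at or near 0, with at most 0.767 and 0.0955 CPM in any library. Lyz2, Adgre1 and Cd68 of the list reached 9.444, 5.815 and 5.524 CPM, each highest in a Cep120-line control.

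**Figure D4:**
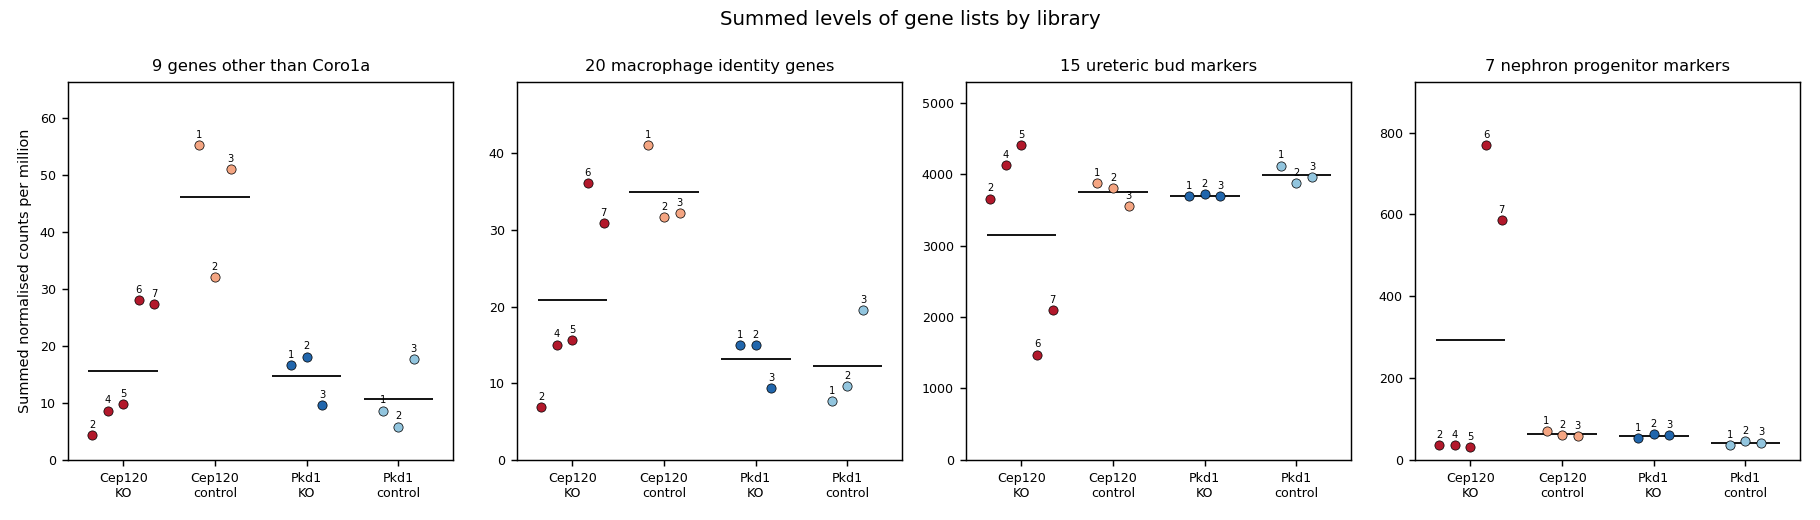
Summed normalised read count in CPM (vertical axes, linear, from 0) by library for the 9 genes other than Coro1a, 20 macrophage identity genes, 15 ureteric bud markers and 7 nephron progenitor markers; lines are group means. Libraries 6 and 7 labelled Cep120 KO are the highest of their group in the macrophage lists (27.98 and 27.3 CPM for the 9 genes, below each Cep120-line control). Their sums are high for nephron progenitor markers and low for ureteric bud markers (1474 and 2094 CPM).

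Haematopoietic signalling and cytoskeleton genes gave 1 call in the Cep120 comparison. Over all genes tested there, 6.26% were called lower and 8.4% higher, so 1 of 15 is close to that share. Of 15 tested haematopoietic signalling and cytoskeleton genes, Rac2, a small GTPase of phagocytes, was called lower in the libraries labelled Cep120 KO (0.918, 0.320, 0.328, 2.58 and 2.04 CPM against 7.99, 12.03 and 3.25 CPM in controls; log2 -2.63, SE 0.81, edgeR adjusted p = 0.0453) and 0 were called higher. The median of these 15 was -0.64. Arhgdib, a regulator of small GTPases abundant in leukocytes, had 40.5, 106, 112, 20.8 and 23.6 CPM in libraries 2, 4, 5, 6 and 7 labelled Cep120 KO, against 93.4, 87.7 and 76.9 CPM in controls, and is named after its values were seen (log2 -0.51, SE 0.47, edgeR adjusted p = 0.4702). None of the 6 tested ligands and regulators was called, the smallest p being that of Mif, a cytokine many tissues make (331 to 1257 CPM against 1352 to 1757 CPM in controls; log2 -1.04, SE 0.35, edgeR adjusted p = 0.0573). The Csf1r ligands Csf1 and Il34 stayed at or below 3.79 CPM in every library. None of 8 tested complement genes was called, the smallest p being that of C5ar1, the C5a receptor (log2 -3.21, SE 1.08, edgeR adjusted p = 0.0581). Of 7 tested MHC class II genes, H2-DMb2 was called lower (log2 -1.55, SE 0.36, edgeR adjusted p = 0.02985). The median of the 7 was 1.52. H2-Eb1 was above every control in each library labelled Cep120 KO (1.508, 1.226, 1.273, 11.1 and 5.48 CPM against 0.999, 1.11 and 0.368 CPM; log2 2.31, SE 0.82, edgeR adjusted p = 0.0696). H2-Ab1 stood at 20.7 and 15.5 CPM in libraries 6 and 7 labelled Cep120 KO and at most 1.203 CPM in each other library.

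Close relatives of the members were also measured. Among 5 tested coronins, none was called, and Coro1c, a broadly expressed form, had the smallest p with a log2 fold change of 0.55 (SE 0.19, edgeR adjusted p = 0.0628). Coro1b was 88.0 to 125 CPM in the libraries labelled Cep120 KO and 98.9 to 112 CPM in their controls. Laptm4a, a widely expressed relative of Laptm5, was called lower (256 to 426 CPM against 492 to 595 CPM in controls; log2 -0.77, SE 0.18, edgeR adjusted p = 0.02947).

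Markers of other blood cells were measured for the same libraries. Cd3d, Cd8a and Ncr1, markers of T and natural killer cells, had 0 reads in all 14 libraries. Cd3e, Nkg7 and Klrb1c, other such markers, had 7, 10 and 3 reads, all in Cep120-line control 2. Cd4 had 16 reads, spread over several libraries. Lck, a kinase of T cells, was nonetheless present everywhere, at 43.2, 38.2, 34.1, 11.03 and 10.4 CPM in libraries 2, 4, 5, 6 and 7 labelled Cep120 KO and 43.8 to 54.3 CPM in their controls. None of the 3 tested lymphocyte markers was called, the smallest p being that of Cd79b, a B cell receptor chain (log2 -0.70, SE 0.23, edgeR adjusted p = 0.0547). Granulocyte genes did not pass the filter, and were highest in Cep120-line control 2 (35.2 CPM summed), where Mpo, the myeloperoxidase of granules, reached 14.1 CPM with 0 reads in every other library. That control was also the highest for Coro1a, Fcer1g, Laptm5 and Rac2 and the lowest of the 3 controls for the C1q genes. Of 6 tested platelet genes, 5 were called lower in the libraries labelled Cep120 KO, led by Gp9 (log2 -7.42, SE 1.47), Pf4 (log2 -6.93, SE 1.58) and Treml1 (log2 -6.19, SE 1.63), at edgeR adjusted p-values of 0.02899, 0.02899 and 0.03195. Pf4 had 0 to 2.61 CPM in the libraries labelled Cep120 KO, against 35.3, 300.5 and 4.24 CPM in controls 1, 2 and 3, while Gp9 and Treml1 had 0 reads in control 3. The median of the 6 was -6.24. Over all genes tested, 6.26% were called lower in this comparison. None of 9 tested erythroid markers was called, but all 9 estimates were below 0 with a median of -3.36, and the list summed to 5.24 to 1093 CPM in the libraries labelled Cep120 KO, against 494 to 7186 CPM in their controls. None of 10 endothelial markers was called, with 7 estimates above 0, a median of 1.17 and the smallest p for Egfl7 (log2 -0.81, SE 0.37, edgeR adjusted p = 0.1448). Their sum was 99.5 CPM in library 7 labelled Cep120 KO and 46.2, 47.6, 52.8 and 20.2 CPM in libraries 2, 4, 5 and 6. In the Cep120-line controls it was 41.0 to 90.3 CPM. Egfl7 made up a large part of these sums. It had 8.35 to 44.0 CPM in the libraries labelled Cep120 KO and 33.8 to 64.45 CPM in those controls. The part of these cell types in the member differences was not tested.

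The genes most like the mean pattern of the 10, by Pearson's r over the 14 libraries, were Ccl6, a chemokine of myeloid cells (r = 0.95, 0 to 2.06 CPM), Ms4a6d (0.91), Selenop (0.88), Mrc1, the mannose receptor (0.87), and Fcgr3, a low-affinity IgG receptor (0.87). They were followed by Cd53 (0.87), Ms4a6c (0.87), Selenbp1 (0.855), Cd300a (0.85) and Ms4a7 (0.85). Of these 10, Selenbp1 alone peaked in library 6 labelled Cep120 KO, and the other 9 peaked in a Cep120-line control. The genes most like Coro1a were Lamtor4, a lysosomal adaptor subunit (r = 0.96), Tk1, thymidine kinase (0.95), Med21, a mediator subunit (0.95), Psmb10, a proteasome subunit (0.94), and Fth1, ferritin heavy chain (0.94). All 5 peaked in Cep120-line control 2, as Coro1a did, and Fth1 ran from 828 to 3159 CPM. No gene appeared in both lists.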

How the data were processed

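RNA of GFP-sorted ureteric bud cells was converted to cDNA with a SMARTer Ultra Low kit, per the labels' protocols; the kit does not mark the strand. The submitters' processing notes name DRAGEN and mm9 with no version or role, while the aligner settings and the annotation are unstated in those notes and in the labels. The authors deposited estimated counts per gene without normalization, TPM per gene and per transcript, and log2 CPM. Of 55774 lines, 287 repeated a gene and were dropped; counts were rounded to whole numbers. The filter (filterByExpr, minimum count 10) left 16876 genes. All 14 libraries entered 1 edgeR 4.0.16 quasi-likelihood model (R 4.3.3) with TMM scaling, 4 group means and 10 residual degrees of freedom; SE is the log2 fold change divided by the square root of F. Correlations used log2 CPM with a prior count of 2. The test was checked on simulated counts with known changes. Alternatives were DESeq2 1.42.0, limma 3.58.1 (voom with quality weights, and trend on the deposited log2 values), RLE scaling, no filter, separate fits and left-out libraries. Gene positions are from GENCODE M21 on GRCm38, not the submitters' build. Counts carry no molecular identifiers, so floors cover counting error only.

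The members, the 12 companion lists and the rules were chosen with earlier results of these data known. Named genes are all members, from each list up to 3 called genes (or the one with the smallest p) in the Cep120 comparison, and those most like the members' mean (10) or Coro1a (5). Arhgdib, Itgam, Cd163, Spi1, Csf1, Il34, H2-Ab1, H2-Eb1, Lck, Cd3d, Cd8a, Ncr1, Mpo and Coro1b fall outside this rule and were chosen after their values were seen. Lyz2, Adgre1, Cd68, Cd3e, Nkg7, Klrb1c, Cd4, Cited1 and Tmem100 were likewise chosen outside it, with their values seen. A few genes that this rule names are not reported here.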

Additional observations from a re-analysis of the deposited data

How the results depend on the processing

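Of 868 recomputed member fold changes, 793 kept their direction and their side of the threshold, 22 lost their call, 20 gained one and 33 changed sign. Members called lower in the libraries labelled Cep120 KO numbered 0 in the separate fit, 0 without libraries 4 to 7, 6 with limma-voom, 1 with Pkd1-line controls, 1 with all 6 controls pooled, and 1 to 3 when 1 library was left out. Genes called there, 2475 in the model of all libraries, were 0, 5, 6665, 76 and 3707 under the first 5 of these, 1028 without libraries 6 and 7, 1400 with libraries 4 and 5 summed, 4199 with DESeq2 and 2 to 5719 with 1 library left out (5719 without library 2, 2 without control 1). For the Pkd1 comparison the separate fit called 3 genes, limma-voom 1 and DESeq2 3; the fit with the replicate block called 0 (603 at an unadjusted p below 0.05), and its same-numbered libraries did not pair (r -0.045, -0.029 and -0.124). For the difference of differences, genes called were 1 without the filter, 1 with limma-trend, 4 without libraries 6 and 7, 5 without libraries 4 to 7, 4383 with limma-voom, 715 with DESeq2 and 0 to 3140 with 1 library left out; members called lower were 1 without libraries 6 and 7, 4 with limma-voom, 2 with DESeq2 and 0 to 2 with 1 library left out. Between the control groups, 21 genes were called, against 139 in the separate fit, 131 with limma-voom, 84 with DESeq2 and 12 to 29 with 1 library left out; members called higher were 1 without the filter, 2, 3 and 1 under those 3 alternatives. With libraries 4 and 5 labelled Cep120 KO summed, members called lower in the Cep120 comparison numbered 2. These libraries lay close to each other, for instance in Arhgdib (106 and 112 CPM) and in the erythroid sum (120 and 135 CPM). Whether they share an origin was not tested. The causes of the differences between settings were not tested either.

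Signs changed with the Pkd1-line controls for Tyrobp (0.082), Fcer1g (0.79), Csf1r (0.60), C1qa (2.02), C1qb (1.12), Cx3cr1 (2.37), Aif1 (1.00) and Laptm5 (1.28), and with pooled controls for C1qa (0.69), Cx3cr1 (0.74) and Laptm5 (0.051); both alternatives were chosen after seeing the data. In the Pkd1 comparison they changed with limma-trend for Tyrobp (-0.15), C1qb (-0.028) and Aif1 (-0.33), with limma-voom for Csf1r (0.67), and with 1 library left out for Tyrobp (-0.92 to 0.63), Coro1a (-0.044 to 0.016), Csf1r (-0.87 to 0.38), C1qa (-0.52 to 1.08), C1qb (-0.89 to 1.05) and Aif1 (-0.32 to 0.79). Elsewhere, leaving out 1 library changed the sign of C1qa (-1.35 to 0.12) and Cx3cr1 (-1.36 to 0.68) in the Cep120 comparison, C1qa in the difference of differences (-1.73 to 0.065) and Ptprc between the controls (-0.14 to 0.79). Aif1, C1qa, Csf1r and Cx3cr1 had 0 reads in 1 to 3 libraries each, which limits their fold changes.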

Other observations

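Among the kidney marker lists, 1 of 15 ureteric bud genes was called in the libraries labelled Cep120 KO against their controls, Pax2 (log2 1.44, edgeR adjusted p = 0.03704), and 1 of 7 nephron progenitor genes, Six2 (log2 5.98, SE 1.82, edgeR adjusted p = 0.04369), both higher. Pax2 stood at 61.91 and 54.64 CPM in libraries 6 and 7 labelled Cep120 KO and at 12.59, 22.82 and 27.05 CPM in libraries 2, 4 and 5. Its controls had 15.15, 11.13 and 13.38 CPM, so the groups overlapped. None of 8 stromal genes was called. Over all genes tested, 8.4% were called higher and 6.26% lower in this comparison. Nephron progenitor genes summed to 769 and 587 CPM in libraries 6 and 7 labelled Cep120 KO and to 31.4 to 36.5 CPM in libraries 2, 4 and 5, against 58.3 to 69.7 CPM in the Cep120-line controls. The same 2 libraries were the highest of the 5 for C1qa, C1qb, Csf1r, Cx3cr1, Aif1, Laptm5, Tyrobp and Fcer1g and the lowest for Lck. The part of the progenitor signal in those levels was not tested.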
